A study of Mus musculus with 5 samples.

Results

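S1pr1, S1pr4, S1pr5, Gpr183, Cd69 and Cd44, 6 of the 35275 genes in the deposited table, are described here across sorted spleen T cells of the mouse. They were chosen by name, as receptors and surface proteins of lymphocyte egress, positioning and activation. No measured value set the choice, but earlier results of these data were known when it was made. All 6 were among the 13298 genes with enough reads to be tested. RNA was sequenced from 2 libraries labelled CD4 Treg, 1 labelled CD8 Treg and 2 labelled CD49lo, named here by their label and replicate number. All were from wild-type C57BL/6 mice aged 3 months, and no treatment or altered allele is named for any group. A CD8 enrichment of splenic lymphocytes came before the stain and the sort, whose markers the labels do not give. The series compares CD4 and CD8 regulatory T cells with CD8 effector cells, so the CD49lo libraries are the effector population only by elimination. Neither separate animals nor pooling is stated, so the p-values rest on a spread between samples that may be purely technical. The CD8 Treg group has n = 1, gives no spread of its own and is assumed in the tests to vary like the other groups.

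Sphingosine-1-phosphate (S1P) is a lipid that is abundant in blood and lymph and scarce inside lymphoid tissue, and lymphocytes that carry the G protein-coupled receptor S1PR1 follow this gradient out of the tissue. CD69, a lectin-like protein induced early after activation, binds S1PR1 and brings about its internalisation, which holds activated cells in place. S1PR5 serves the exit of natural killer (NK) cells from lymph node and bone marrow and is found on terminally differentiated effector cells, and S1PR4 is a further receptor of blood cells. GPR183 (EBI2) steers lymphocytes and dendritic cells within the spleen along gradients of oxysterols, and CD44 is the receptor for hyaluronan and a mark of antigen-experienced T cells. Transcript levels, which were measured here, do not report the surface amount of a receptor that is internalised.

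Levels are given in RPKM, the reads of a gene divided by its length and by the depth of its library, so that genes can be compared per length. Depth was 5441444 to 8354971 reads in genes per library. Cd3e, a subunit of the T cell receptor complex, stood at 302 to 402 RPKM in all 5 libraries. Foxp3, the defining factor of CD4 regulatory T cells, stood at 146 RPKM in both CD4 Treg libraries and at 0.387 to 1.65 in the other 3, while Cd8a was at 0.352 and 0.412 in CD4 Treg and at 187 to 255 elsewhere. Foxp3 therefore marked the CD4 Treg libraries, and the library labelled CD8 Treg stood at 0.387. The 11 markers of NK cells and innate lymphoid cells summed to 11.1 and 15.6 RPKM for CD4 Treg, 353 for CD8 Treg, and 579.9 and 1963 for CD49lo replicates 1 and 2, with Ncr1 and Klra8 at 0 in both CD4 Treg libraries. Gzma alone gave 304 and 1580 of the CD49lo sums. Without it the other markers summed to 14.1 and 10.5 RPKM for CD4 Treg, 297 for CD8 Treg, and 276 and 384 for CD49lo. The CD8 Treg sum thus lay inside the CD49lo range, but single markers ran both ways. Of the 11, 5 were higher in CD8 Treg than in both CD49lo libraries, 4 lower than both and 2 between. The 15 myeloid and dendritic cell markers summed to 4.46 and 16.6 RPKM for CD4 Treg, 449 for CD8 Treg, and 625 and 623 for CD49lo. Of these sums Ly6c2 alone gave 178 RPKM in CD8 Treg and 60.3 and 110 in CD49lo, so it was highest in CD8 Treg, unlike the sum. Xist was at 27.2 and 35.5 RPKM in CD4 Treg and at 0 to 0.0834 elsewhere, and the Y-linked Ddx3y showed the opposite split, so the sex of the mice and the CD4 Treg group cannot be told apart. In bulk RNA, fewer cells of a type and less RNA per cell cannot be told apart either.

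Promoter sequence is shown for S1pr5 and S1pr4, the S1P receptor that varied most and one that varied little, because KLF2, a zinc finger factor of T cell egress, binds CACCC elements. RefSeq (GRCm38.p6) gave a promoter for 4 of the 6 genes, and each line is the 250 bases before the start, read 5′ to 3′ on the minus strand of the genome. Capitals mark CACCC on either strand. The S1pr5 window is chr9:21248444-21248693 and the S1pr4 window is chr10:81500138-81500387.
S1pr5: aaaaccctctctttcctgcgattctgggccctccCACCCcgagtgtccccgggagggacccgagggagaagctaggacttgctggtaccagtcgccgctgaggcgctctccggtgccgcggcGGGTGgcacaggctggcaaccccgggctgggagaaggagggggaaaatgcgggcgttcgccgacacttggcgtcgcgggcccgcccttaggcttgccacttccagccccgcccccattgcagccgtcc
S1pr4: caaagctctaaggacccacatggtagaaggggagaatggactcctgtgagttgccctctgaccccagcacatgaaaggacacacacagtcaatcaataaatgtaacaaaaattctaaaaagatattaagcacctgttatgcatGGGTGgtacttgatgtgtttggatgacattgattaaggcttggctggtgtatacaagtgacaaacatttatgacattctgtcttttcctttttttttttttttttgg
The S1pr5 window held 2 matches, at 216 and 128 bases before the start, and the S1pr4 window 1, at 107 bases. No match was found in the windows of Gpr183 and Cd44. CACCC is short, and 52% of the 32851 promoter windows of this length hold it on 1 strand or the other. None of the 4 windows held the FOXO letters GTAAACA, the T-box letters GGTGTGA or the AP-1 letters TGANTCA on either strand, which occur in 3.17%, 3.33% and 6.75% of all windows. These matches describe letters in a window and carry no test of binding.

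Among the S1P receptors S1pr5 had the largest fold changes between the populations, and it ran from nearly no reads in CD4 Treg to 57.6 RPKM in a CD49lo library. S1pr1 was the most abundant of the receptors in each library, at 86.2 to 115 RPKM, and neither S1pr1 nor S1pr4 passed the test in any comparison. Values in all libraries are shown in the plot of the 6 genes by sample.

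**Figure D1:**
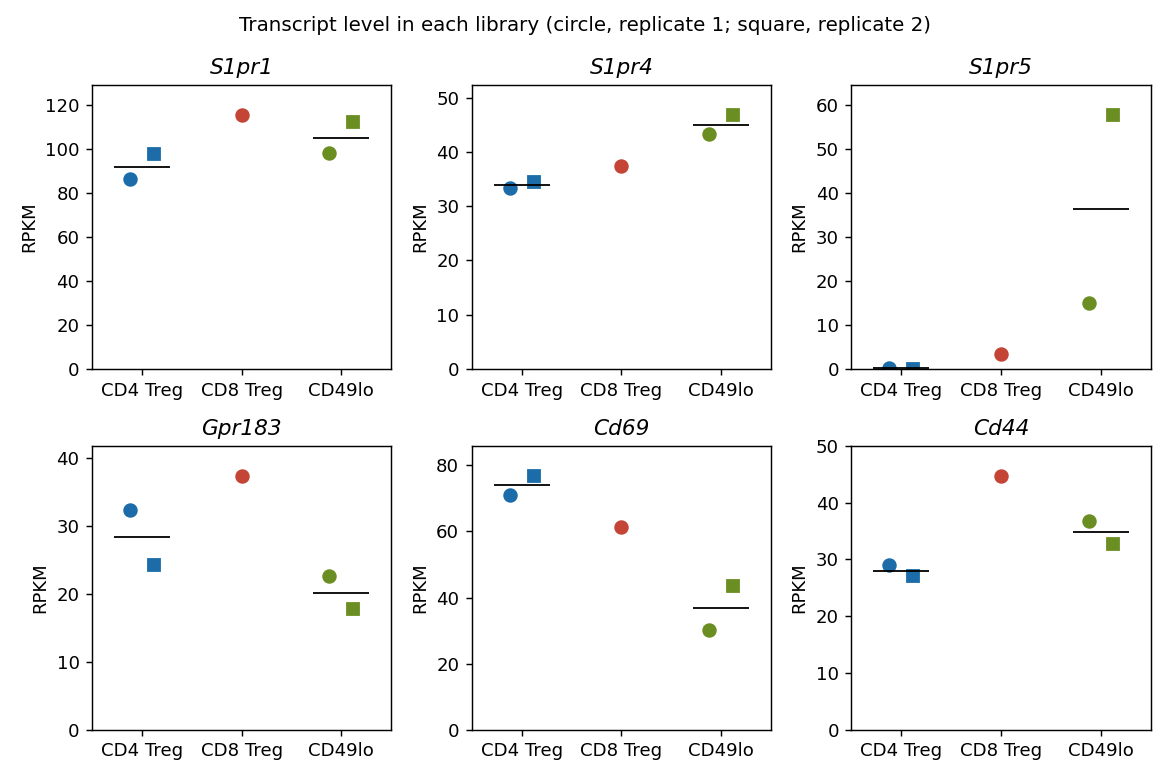
Level of each of the 6 genes in RPKM (vertical axis, from 0, own scale per gene) in the CD4 Treg, CD8 Treg and CD49lo libraries. Circles are replicate 1, squares replicate 2 and lines the mean of 2 replicates. S1pr5 stood at 0.193 and 0 RPKM in CD4 Treg and at 15.1 and 57.6 in CD49lo, while S1pr1 lay between 86.2 and 115 in all 5 libraries.

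S1pr1 (ENSMUSG00000045092, mm10 chromosome 3, 115710433 to 115715055, minus strand) encodes the receptor for egress along the S1P gradient. Its level was 86.2 and 97.6 RPKM for CD4 Treg, 115 for CD8 Treg, and 98.2 and 112 for CD49lo. The ranges did not overlap, but they nearly touched, with the higher CD4 Treg library just under the lower CD49lo library and CD8 Treg just above the higher one. The means were 91.9 ± 8.06 RPKM in CD4 Treg and 105 ± 9.79 in CD49lo (SD, n = 2 each). The log2 fold change of CD4 Treg against CD49lo, on the log2(RPKM + 0.5) scale used throughout, was -0.17 ± 0.11 (SE, 95% interval -0.42 to 0.09, adjusted p = 0.339 in limma). CD8 Treg was 0.27 ± 0.14 above CD49lo (interval -0.04 to 0.58, adjusted p = 0.327) and 0.44 ± 0.14 above CD4 Treg (interval 0.13 to 0.74, adjusted p = 0.0591). No pair of neighbours in the order CD4 Treg, CD49lo, CD8 Treg therefore passed the test for S1pr1, and the intervals leave room for differences of up to 0.74 on the log2 scale.

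S1pr4 (ENSMUSG00000044199, chromosome 10, 81497745 to 81500132, minus strand) encodes a receptor of lymphoid and other blood cells that also binds S1P. Its level was 33.4 and 34.6 RPKM for CD4 Treg, 37.5 for CD8 Treg, and 43.3 and 46.8 for CD49lo. The replicates were close, with a difference of 0.04 on the log2 scale in CD4 Treg and 0.08 in CD49lo, and the groups did not overlap. CD4 Treg differed from CD49lo by a log2 fold change of -0.37 ± 0.12 (SE, interval -0.65 to -0.09), which missed the threshold at an adjusted p of 0.0599 in limma. Without TMM (trimmed mean of M values, a scaling between libraries) the same difference was -0.40 with an adjusted p of 0.0481. CD8 Treg lay between the other groups, -0.13 ± 0.15 from CD49lo (adjusted p = 0.715) and 0.25 ± 0.15 from CD4 Treg (adjusted p = 0.318).

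S1pr5 (ENSMUSG00000045087, chromosome 9, 21242912 to 21248443, minus strand) encodes the receptor known from NK cells and terminal effectors. Its level was 0.193 RPKM (3 reads) and 0 (no read) in CD4 Treg, 3.36 (51 reads) in CD8 Treg, and 15.1 (315 reads) and 57.6 (945 reads) in CD49lo replicates 1 and 2. The 3 groups did not overlap, and both CD4 Treg libraries were at or under the level of 3 reads. Per unit of depth the reads of both CD49lo libraries exceeded those of both CD4 Treg libraries 328-fold, with an exact conditional 95% interval of 112 to 1592 that covers counting error only. CD8 Treg exceeded CD4 Treg 32.6-fold (10.5 to 163) and lay under CD49lo, which was 10.1-fold higher (7.60 to 13.6), by the same counts. These ratios compare the libraries, and their intervals leave out the spread between replicates.

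That spread was wide for S1pr5 in CD49lo. Replicate 2 held 3.82 times the S1pr5 reads of replicate 1 per unit of depth (counting interval 3.36 to 4.35). On the log2 scale the replicates differed by 1.87, against a median of 0.25 over all tested genes, and 1.47% of genes differed more. The other 5 genes differed by 0.08 to 0.49 between the CD49lo replicates. The 11 NK and innate lymphoid markers did not move as one between these libraries: 9 were higher and 2 lower in replicate 2, with ratios from 0.650 to 5.20 and a median of 1.59. Only Gzma and Klre1 of the 11 had ratios above that of S1pr5. Gzma, a granzyme of NK and cytotoxic T cells, stood at 304 and 1580 RPKM and Klre1, a lectin-like NK receptor, at 22.3 and 109 in CD49lo replicates 1 and 2. In CD8 Treg Gzma was at 56.4 RPKM, and in CD4 Treg Gzma and Klre1 were at or under 1.47 and 0.124. Eomes, a factor of NK and memory T cells, stood at 57.0 and 55.2 RPKM in CD49lo and at 82.4 in CD8 Treg, and 5 of the 11 markers were higher in CD8 Treg than in both CD49lo libraries, 4 lower than both and 2 between. Of the 11, 10 were lower in CD4 Treg than in CD49lo, where 22.3% of all genes passed in limma. In CD8 Treg against CD4 Treg 11 were higher, where 16.9% passed, and in CD8 Treg against CD49lo 2 were lower, where 5.3% passed. With limma-voom on the recovered reads 8, 9 and 7 of the 11 passed in the same order. The count between CD8 Treg and CD49lo thus depends on the method. Gzma and Eomes are also genes of T cells, so the markers do not measure NK cells alone. The part of NK and innate lymphoid cells in the S1pr5 result was not tested.

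In the fit over all genes, S1pr5 was lower in CD4 Treg than in CD49lo by a log2 fold change of -5.64 ± 0.57 (SE, interval -6.92 to -4.35, adjusted p = 0.000126 in limma). It was higher in CD8 Treg than in CD4 Treg by 2.80 ± 0.70 (interval 1.22 to 4.37, adjusted p = 0.0239). Between CD8 Treg and CD49lo the difference of -2.84 ± 0.70 (interval -4.42 to -1.27) missed the threshold at an adjusted p of 0.0502, and was -3.77 without CD49lo replicate 1 and -1.91 without replicate 2. Since CD4 Treg had 0 to 3 reads, the fold change against it depends on the pseudocount: with 0.1 RPKM it was -7.40 and with 1 RPKM -4.78 against CD49lo. Without CD49lo replicate 2 the S1pr5 difference of CD4 Treg from CD49lo was -4.69 with an adjusted p of 0.0565, and with limma-voom on the recovered reads it was -8.19 with an adjusted p of 0.110. The call of CD8 Treg over CD4 Treg was lost without any 1 of the replicated libraries (adjusted p 0.0917 to 0.160), with 1 degree of freedom left in place of 2. It was also lost with limma-voom (5.27, adjusted p = 0.390) and with a pseudocount of 1 RPKM (2.07, adjusted p = 0.0762). In the annotation (GENCODE M21) S1pr5 shares 51 exon bases with the unclassified Gm48303 on the opposite strand, which was not analysed here, and reads of the pair cannot be told apart without strand.

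**Figure D2:**
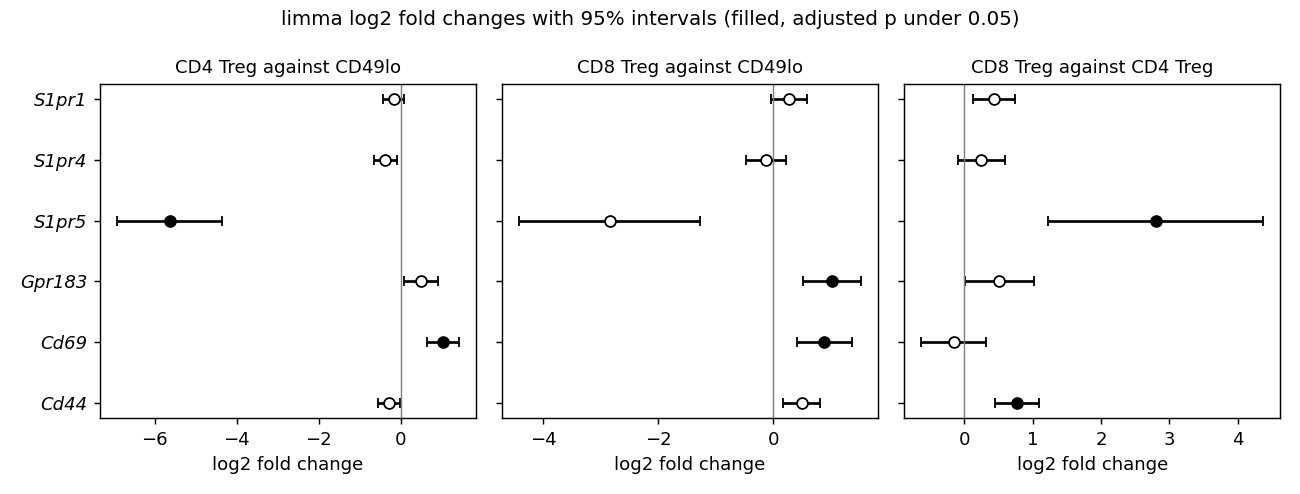
Log2 fold change of the 6 genes (horizontal axis, log2(RPKM + 0.5) scale) in the 3 comparisons, with 95% intervals from limma as bars and filled points where the adjusted p was under 0.05. S1pr5 at -5.64 in CD4 Treg against CD49lo lies far from the others, and 2 of the 6 points are filled in each comparison.

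Of the 6 genes, 2 passed the test in CD4 Treg against CD49lo, Cd69 higher and S1pr5 lower, where 22.3% of all genes tested passed, 9.45% higher and 12.8% lower. Between CD8 Treg and CD49lo, 2 passed, Gpr183 and Cd69, both higher, against 5.3% of all genes, 1.71% higher and 3.59% lower. Between CD8 Treg and CD4 Treg, 2 passed, S1pr5 and Cd44, both higher, against 16.9% of all genes, 8.51% higher and 8.35% lower. The 3 comparisons share libraries and are not independent of each other. The share of all genes whose groups do not overlap was not counted, so a lack of overlap given for a gene is a description only.

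The summed level of the 5 S1P receptor genes was 125 and 138 RPKM for CD4 Treg, 158 for CD8 Treg, and 159.6 and 219 for CD49lo. S1pr1 made up 69.0% and 71.0% of it in CD4 Treg, 73.1% in CD8 Treg, and 61.5% and 51.2% in CD49lo. S1pr5 made up 0.155% and 0% in CD4 Treg, 2.13% in CD8 Treg, and 9.45% and 26.3% in CD49lo. S1pr1 was thus 34.3 times as high as S1pr5 in CD8 Treg and 6.51 and 1.95 times as high in CD49lo, per length. S1pr4 stayed between 21.4% and 27.1% in all 5 libraries.

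**Figure D3:**
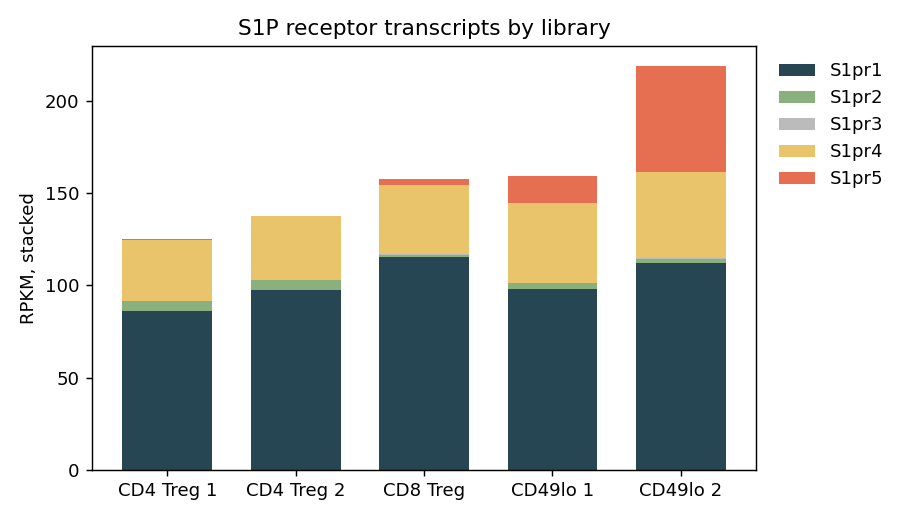
RPKM of S1pr1, S1pr2, S1pr3, S1pr4 and S1pr5 stacked for each of the 5 libraries (vertical axis from 0). The S1pr5 segment is absent or thin in CD4 Treg and reaches 26.3% of the stack in CD49lo replicate 2, on top of an S1pr1 segment of 86.2 to 115 RPKM.

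S1pr2, whose protein restrains migration toward S1P, ran in another order. It stood at 5.10 and 5.29 RPKM for CD4 Treg, 1.29 for CD8 Treg, and 2.93 and 2.11 for CD49lo, so that CD8 Treg was lowest and CD4 Treg highest without overlap. It was lower in CD8 Treg than in CD4 Treg by a log2 fold change of -1.59 ± 0.38 (SE, adjusted p = 0.0202 in limma), while its 0.95 ± 0.31 in CD4 Treg against CD49lo had an adjusted p of 0.0589. S1pr3, best known from vessels and heart, was at or under 0.510 RPKM in every library. The S1pr2 call was lost without any 1 of the replicated libraries (adjusted p 0.110 to 0.149) and with limma-voom (adjusted p = 0.0740).

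Among 22 genes of S1P synthesis, breakdown and transport, 20 could be tested and few differed. All genes tested passed at 22.3% in CD4 Treg against CD49lo, 5.3% in CD8 Treg against CD49lo and 16.9% in CD8 Treg against CD4 Treg. In CD4 Treg against CD49lo 2 of the 20 were lower and none higher. Their median log2 fold change was -0.05 against -0.03 over all genes. The 2 were Asah1, the acid ceramidase that releases sphingosine (-0.79 ± 0.19, adjusted p = 0.0160), and Cers6, a ceramide synthase (-1.07 ± 0.31, adjusted p = 0.0337). None passed in limma between CD8 Treg and CD49lo, where 3 had an unadjusted p under 0.05, none passed with limma-voom, and the median was -0.24. Only 1 of the 20 was lower in CD8 Treg than in CD4 Treg, the neutral ceramidase Asah2 (adjusted p = 0.0447), at 1.72 and 1.92 RPKM in CD4 Treg and 0.0703 in CD8 Treg. With a pseudocount of 1 RPKM the limma calls of Asah2 (adjusted p = 0.0669) and Cers6 (adjusted p = 0.0519) were lost. That of Asah2 was also lost with limma-voom (adjusted p = 0.152). Without the filter on low reads Asah1, Cers6 and Asah2 were all lost in limma (adjusted p = 0.0689, 0.243 and 0.199). Each of these calls was also lost without any 1 of the replicated libraries. The log2 fold changes there were -0.72 to -0.87 for Asah1, -0.68 to -1.45 for Cers6 and -1.95 to -2.06 for Asah2.

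The 23 genes of receptor coupling and desensitisation, which include G proteins, arrestins, receptor kinases and regulators of G protein signalling, passed at shares that were not tested against those of all genes. In CD4 Treg against CD49lo 4 of the 23 were higher and 2 lower (median 0.02), where 22.3% of all genes passed, and in CD8 Treg against CD4 Treg 3 were higher and 6 lower (median -0.22 against 0.02 over all genes), where 16.9% passed. Rgs1, which dampens signalling of Gi-coupled receptors, stood at 68.0 and 72.0 RPKM for CD4 Treg, 6.28 for CD8 Treg, and 8.64 and 15.2 for CD49lo. It was higher in CD4 Treg than in CD49lo by 2.58 ± 0.21 (adjusted p = 3.46e-05) and lower in CD8 Treg than in CD4 Treg by -3.28 ± 0.26 (adjusted p = 4.96e-05). Rgs16, a related regulator, was at 8.20 and 16.3 RPKM for CD4 Treg, 0.211 for CD8 Treg, and 4.66 and 2.87 for CD49lo. Rgs16 and Grk5, a receptor kinase, were the 2 of the 23 that passed in CD8 Treg against CD49lo, both lower (-2.49 ± 0.49, adjusted p = 0.0208, and -2.26 ± 0.40, adjusted p = 0.0122) where 5.3% of all genes passed, and none of the list passed there with limma-voom. The arrestins ran in opposite directions: Arrb1 was 1.28 ± 0.13 higher and Arrb2 lower (-0.50 ± 0.12) in CD4 Treg than in CD49lo (adjusted p = 0.000131 and 0.0145). Grk6 was higher in CD8 Treg than in CD4 Treg (0.80 ± 0.15, adjusted p = 0.00565), whereas Grk2, a kinase of S1PR1, was 0.02 from CD4 Treg with an adjusted p of 0.939.

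Of 12 transcription factors known as regulators of S1pr1, S1pr5 or Cd69, 5 were higher and 6 lower in CD4 Treg than in CD49lo. Their median was 0.04. All genes tested passed at 22.3% there, at 5.3% in CD8 Treg against CD49lo and at 16.9% in CD8 Treg against CD4 Treg. Klf2, which drives S1pr1 in naive T cells, stood at 212 and 229 RPKM for CD4 Treg, 251 for CD8 Treg, and 272 and 314 for CD49lo. It was in the same order as S1pr4 and lower in CD4 Treg than in CD49lo by -0.38 ± 0.10 (adjusted p = 0.0287), with an adjusted p of 0.162 for CD8 Treg against CD4 Treg. Foxo1, upstream of Klf2, was at 64.6 and 62.1 RPKM for CD4 Treg, 31.9 for CD8 Treg, and 31.3 and 25.2 for CD49lo, and was higher in CD4 Treg than in CD49lo by 1.19 ± 0.13 (adjusted p = 0.000201). Tbx21, which encodes T-bet, a factor needed for S1pr5 in NK cells, was at 2.20 and 1.99 RPKM for CD4 Treg, 64.3 for CD8 Treg, and 55.2 and 90.5 for CD49lo. Thus the CD8 Treg value of Tbx21 lay inside the CD49lo range, while that of S1pr5 lay under it. In CD8 Treg against CD49lo 3 of the 12 were lower and none higher (median -0.08): Zeb2 (-2.33 ± 0.42, adjusted p = 0.0134), Prdm1 (-1.32 ± 0.26, adjusted p = 0.0205) and Hif1a (-0.82 ± 0.14, adjusted p = 0.00985). In CD8 Treg against CD4 Treg 3 were higher and 5 lower (median 0.01).

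Zeb2, a zinc finger factor of terminal effector differentiation, was also the gene whose profile over the 5 libraries was nearest to that of S1pr5. Likeness was measured as the root mean square difference of centred log2 profiles among 9125 genes with at least 10 RPM in their highest library, and it shares all 5 libraries and their depth. Zeb2 differed from S1pr5 by 0.37 on this scale, Smpdl3b, an acid sphingomyelinase-like protein, by 0.46, and Lgals3, a galectin, by 0.51. Zeb2 stood at 0.283 and 0.222 RPKM for CD4 Treg, 4.14 for CD8 Treg, and 16.0 and 38.4 for CD49lo. Like S1pr5, all 3 genes were lowest in CD4 Treg, between in CD8 Treg and highest in CD49lo replicate 2. The likeness is a description and carries no p.

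**Figure D4:**
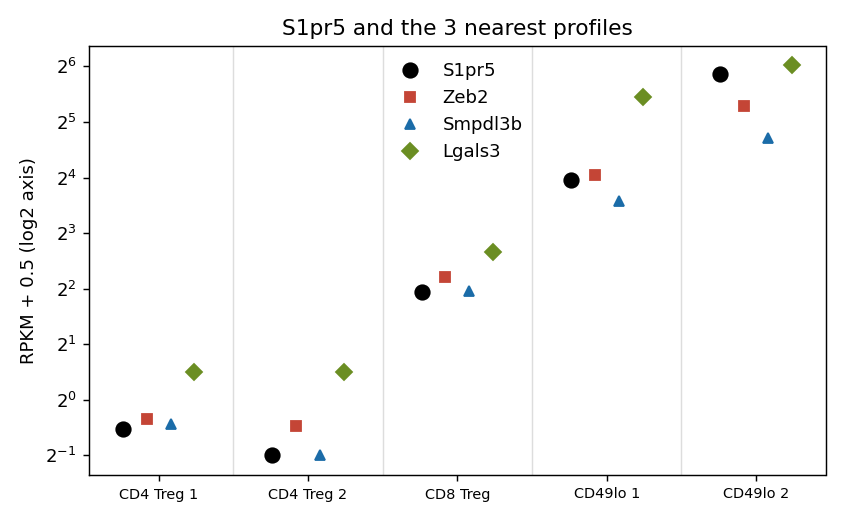
RPKM of S1pr5 and of its 3 nearest genes by profile, Zeb2, Smpdl3b and Lgals3, in the 5 libraries (vertical axis log2 scaled, RPKM + 0.5). Each gene climbs from CD4 Treg through CD8 Treg to CD49lo, with Zeb2 at 4.14 in CD8 Treg and 16.0 and 38.4 in the CD49lo libraries.

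S1pr1 and S1pr4 had many close neighbours, since they varied little. The nearest to S1pr1 were Rap2b, a small GTPase, at 0.0272, Tnks, a tankyrase, at 0.0319, and L3mbtl2 at 0.0332. Those of S1pr4 included Adamts10, a metalloprotease, at 0.0306 and Rrbp1 at 0.0308.

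Gpr183 was highest in the CD8 Treg library and lowest in CD49lo, an order that none of the S1P receptors followed. Gpr183 (ENSMUSG00000051212, chromosome 14, 121952331 to 121965193, minus strand) stood at 32.4 and 24.2 RPKM for CD4 Treg, 37.3 for CD8 Treg, and 22.6 and 17.7 for CD49lo. The groups did not overlap, but the lower CD4 Treg library came close to the higher CD49lo library. Its mean was 28.3 ± 5.76 RPKM in CD4 Treg and 20.2 ± 3.47 in CD49lo (SD, n = 2 each). Gpr183 was higher in CD8 Treg than in CD49lo by a log2 fold change of 1.02 ± 0.23 (SE, interval 0.51 to 1.52, adjusted p = 0.0341 in limma), or 2.02-fold. CD4 Treg differed from CD49lo by 0.50 ± 0.18 (interval 0.09 to 0.92, adjusted p = 0.0860), and CD8 Treg from CD4 Treg by 0.51 ± 0.23 (interval 0.01 to 1.02, adjusted p = 0.164). The call of CD8 Treg over CD49lo was lost without any 1 of the replicated libraries, with adjusted p of 0.0906 to 0.340 and log2 fold changes of 0.82 to 1.21.

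Gpr183 lies inside Ubac2, a gene of the endoplasmic reticulum on the opposite strand, with 12645 bases of the gene span and 0 exon bases shared. Ubac2 stood at 37.8 and 40.0 RPKM for CD4 Treg, 26.5 for CD8 Treg, and 34.4 and 35.2 for CD49lo. CD8 Treg was the lowest library for Ubac2 and the highest for Gpr183, and Ubac2 differed from CD49lo by -0.25 ± 0.16 (adjusted p = 0.442). The genes nearest to Gpr183 by profile were Paip2b, which restrains translation, at 0.0600, Acvr2a, an activin receptor, at 0.0749, and Gid4 at 0.0941.

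Of 6 enzymes that make or break down the oxysterol ligands of GPR183, 3 could be tested, and Ch25h, the cholesterol 25-hydroxylase, was at 0 in every library. In CD4 Treg against CD49lo, where 22.3% of all genes passed, 2 were lower and none higher (median -1.01 over 3 genes). Hsd11b1, a hydroxysteroid dehydrogenase that acts on 7-oxygenated sterols, stood at 21.9 and 26.1 RPKM for CD4 Treg, 69.1 for CD8 Treg, and 52.9 and 46.6 for CD49lo. It was highest in CD8 Treg, as was Gpr183, and was higher there than in CD4 Treg by 1.62 ± 0.19 (adjusted p = 0.000483), with an adjusted p of 0.115 against CD49lo. Cyp27a1, a sterol 27-hydroxylase, was at 0.0852 and 0 RPKM for CD4 Treg, 1.65 for CD8 Treg, and 2.21 and 4.03 for CD49lo. None of the 3 enzymes passed in CD8 Treg against CD49lo by limma or limma-voom, and 1 had an unadjusted p under 0.05.

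Cd69 was higher in both regulatory populations than in CD49lo. Cd69 (ENSMUSG00000030156, chromosome 6, 129267324 to 129275369, minus strand) stood at 71.1 and 76.8 RPKM for CD4 Treg, 61.5 for CD8 Treg, and 30.2 and 43.6 for CD49lo. All 3 regulatory libraries lay above both CD49lo libraries. The means were 73.9 ± 3.99 RPKM in CD4 Treg and 36.9 ± 9.48 in CD49lo (SD, n = 2 each). Cd69 was higher in CD4 Treg than in CD49lo by a log2 fold change of 1.04 ± 0.17 (SE, interval 0.66 to 1.43, adjusted p = 0.00206 in limma), or 2.06-fold. It was higher in CD8 Treg than in CD49lo by 0.88 ± 0.21 (interval 0.41 to 1.36, adjusted p = 0.0440), or 1.85-fold. CD8 Treg and CD4 Treg differed by -0.16 ± 0.21 (interval -0.63 to 0.32, adjusted p = 0.674), an interval that leaves room for a difference in either direction.

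The Cd69 call of CD4 Treg over CD49lo was lost without CD4 Treg replicate 2 (adjusted p = 0.0559), without CD49lo replicate 1 (0.81, adjusted p = 0.0801) and without CD49lo replicate 2 (1.29, adjusted p = 0.0549). The call of CD8 Treg over CD49lo was lost without any 1 of the replicated libraries (0.64 to 1.13, adjusted p 0.154 to 0.240), without TMM scaling (0.75, adjusted p = 0.0778) and with a pseudocount of 1 RPKM (adjusted p = 0.0589). The nearest genes to Cd69 by profile were Pja1, a ubiquitin ligase, at 0.0929, Cpq, a carboxypeptidase, at 0.101 and Nat6 at 0.104.

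CD69 protein acts on S1PR1, and the transcripts of the pair ran in different ratios. S1pr1 was 1.21 and 1.27 times as high as Cd69 in CD4 Treg, 1.88 times in CD8 Treg, and 3.25 and 2.57 times in CD49lo, per length. The ratio was lowest in CD4 Treg and highest in CD49lo, and the groups did not overlap. Over the 5 libraries Cd69 ran from 30.2 to 76.8 RPKM and S1pr1 from 86.2 to 115.

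Cd69 is itself induced early after stimulation, and 20 immediate early genes, which are switched on within minutes of a stimulus or of cell handling, were set beside it. They summed to 1751 and 1734 RPKM for CD4 Treg, 679 for CD8 Treg, and 747 and 787 for CD49lo. In CD4 Treg against CD49lo 22.3% of all genes passed, with a median of -0.03. Of the 20, 14 were higher there and 1 lower, with a median of 0.96. The largest of those by p were Dusp1, a phosphatase of MAP kinases (3.27 ± 0.18, adjusted p = 3.93e-06), and Jun, an AP-1 subunit (3.06 ± 0.18, adjusted p = 6.12e-06). Against CD4 Treg, where 16.9% of all genes passed, the CD8 Treg library had 1 of the 20 higher and 14 lower (median -1.06). Dusp1 stood at 73.0 and 66.8 RPKM for CD4 Treg, 5.13 for CD8 Treg, and 7.61 and 6.26 for CD49lo. The 1 gene that ran the other way in both comparisons was Ier3, named after its values were seen. Against CD49lo, where 5.3% of all genes passed, CD8 Treg had none of the 20 higher and 1 lower (median -0.21). The 1 was Nr4a1, an orphan nuclear receptor induced by antigen receptor signals, at -0.95 ± 0.19 (adjusted p = 0.0199 in limma). None of the 20 passed there with limma-voom.

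Cd69 and 14 of these genes were called higher in CD4 Treg than in CD49lo. In CD8 Treg against CD49lo Cd69 stood at 0.88 ± 0.21 (SE), above all of the 20 but Fosb. Their largest values there were 1.15 ± 0.39 for Fosb, which was not called (adjusted p = 0.143 in limma), and 0.65 ± 0.41 for Fos. Their median was -0.21. The part of cell handling in the Cd69 levels was not tested.

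**Figure D5:**
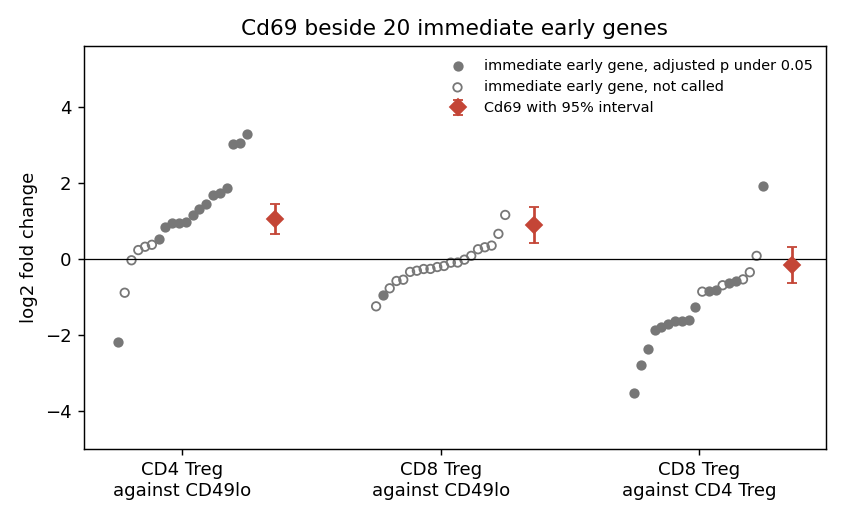
Log2 fold changes of 20 immediate early genes (points, filled where the adjusted p was under 0.05) and of Cd69 (diamond with its 95% interval) in the 3 comparisons. The 20 genes centre at 0.96 in CD4 Treg against CD49lo and at -0.21 in CD8 Treg against CD49lo, where Cd69 stands at 0.88.

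Of 8 genes whose proteins are known to bind CD69, 7 could be tested. In CD4 Treg against CD49lo 3 were lower and none higher (median -0.30): Lgals1, which encodes galectin-1 (-2.46 ± 0.13, adjusted p = 3.46e-06), and S100a8 and S100a9, which form calprotectin (adjusted p = 0.000157 and 0.00135). S100a8, a gene of neutrophils and monocytes, stood at 1.23 and 0 RPKM for CD4 Treg, 49.1 for CD8 Treg, and 62.6 and 36.5 for CD49lo. The CD8 Treg value of S100a8 lay inside the CD49lo range. Without S100a8 and S100a9, which the myeloid list also holds, its 13 other markers summed to 9.49 and 4.46 RPKM for CD4 Treg, 305 for CD8 Treg, and 393 and 494 for CD49lo. Ly6c2 alone was 178 of the 305 RPKM in CD8 Treg, against 60.3 and 110 in the CD49lo sums. The part of myeloid cells in these values was not tested. Against CD49lo, CD8 Treg showed Lgals1 alone of the 7 lower (-1.87 ± 0.16, adjusted p = 0.000468, median of the list 0.17), and in CD8 Treg against CD4 Treg 4 were higher and none lower (median 0.52). All genes tested passed at 22.3% in CD4 Treg against CD49lo, and at 5.3% and 16.9% in the last 2 comparisons.

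Cd44 was highest in the CD8 Treg library and lowest in CD4 Treg. Cd44 (ENSMUSG00000005087, chromosome 2, 102811141 to 102901665, minus strand) stood at 29.0 and 27.1 RPKM for CD4 Treg, 44.7 for CD8 Treg, and 36.8 and 32.8 for CD49lo. The groups did not overlap, and replicates were close, with log2 differences of 0.10 between the CD4 Treg and 0.20 between the CD49lo libraries. The means were 28.1 ± 1.30 RPKM in CD4 Treg and 34.8 ± 2.89 in CD49lo (SD, n = 2 each). Cd44 was higher in CD8 Treg than in CD4 Treg by a log2 fold change of 0.77 ± 0.14 (SE, interval 0.45 to 1.09, adjusted p = 0.00586 in limma), or 1.71-fold. Neither neighbour in the order passed: CD4 Treg differed from CD49lo by -0.28 ± 0.12 (interval -0.54 to -0.01, adjusted p = 0.129) and CD8 Treg from CD49lo by 0.49 ± 0.14 (interval 0.17 to 0.82, adjusted p = 0.0903). Without any 1 of the replicated libraries the call of CD8 Treg over CD4 Treg had adjusted p of 0.0503 to 0.0846. The table holds 1 value for Cd44, whose 9 annotated transcripts include variable exons, so isoforms were not separated.

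The nearest genes to Cd44 by profile were Ndufa10, a subunit of respiratory complex I, at 0.0443, Fastkd1 at 0.0479 and Lax1, an adaptor of lymphocytes, at 0.0541. Among 20 genes of hyaluronan and CD44 partners, 12 could be tested and 2 passed in each comparison, Cd74 and Hmmr each time. All genes tested passed at 22.3% in CD4 Treg against CD49lo, 5.3% in CD8 Treg against CD49lo and 16.9% in CD8 Treg against CD4 Treg. Cd74, the invariant chain that pairs with CD44 in MIF signalling and is high in antigen-presenting cells, stood at 51.6 and 49.4 RPKM for CD4 Treg, 369 for CD8 Treg, and 763 and 797 for CD49lo. Cd79a, a part of the receptor complex of B cells, which express Cd74, ran in the same order of groups, at 0.775 and 1.14 RPKM for CD4 Treg, 18.6 for CD8 Treg, and 29.2 and 46.9 for CD49lo. Of the 11 B cell markers in the table, 10 were lower in CD4 Treg than in CD49lo and 10 higher in CD8 Treg than in CD4 Treg, and none passed in limma between CD8 Treg and CD49lo (3 at an unadjusted p under 0.05, 2 with limma-voom). Summed, they stood at 454 and 535 RPKM for CD4 Treg, 378 for CD8 Treg, and 677 and 554 for CD49lo. Ighm, called in no comparison, gave 444 and 521 RPKM of these sums in CD4 Treg. It gave 285 in CD8 Treg, and 518 and 336 in CD49lo. In CD4 Treg the sums were thus nearly all Ighm and hide the order of the 10 called markers. The part of B cells in the Cd74 levels was not tested. Hmmr, a hyaluronan-binding protein of dividing cells, stood at 0.290 and 0.850 RPKM for CD4 Treg, 2.41 for CD8 Treg, and 13.8 and 10.8 for CD49lo. Both were lower in CD4 Treg than in CD49lo (-3.91 ± 0.10, adjusted p = 6.33e-08, and -3.59 ± 0.34, adjusted p = 8.98e-05) and lower in CD8 Treg than in CD49lo (-0.94 ± 0.12, adjusted p = 0.00289, and -2.01 ± 0.42, adjusted p = 0.0264). This order, with CD49lo at the top, is not that of Cd44, which peaked in CD8 Treg. Ezr and Msn, which tie CD44 to the actin skeleton, passed in no comparison and stood at 189 to 211 and 309.5 to 354 RPKM. The medians of the 12 genes were 0.05, 0.02 and 0.05 in the 3 comparisons.

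Other receptors of homing and egress were set beside the 6 genes. Of 22, 21 could be tested, and 8 were higher and 11 lower in CD4 Treg than in CD49lo, with a median of -0.44. In CD8 Treg against CD49lo 2 were higher and 7 lower (median -0.29), and in CD8 Treg against CD4 Treg 7 were higher and 8 lower (median 0.08). The shares of all genes that passed were 22.3%, 5.3% and 16.9% in these 3 comparisons, with medians of -0.03, -0.04 and 0.02. Cx3cr1, the fractalkine receptor of cytotoxic effectors, was at 0.130 and 0.197 RPKM for CD4 Treg, 2.34 for CD8 Treg, and 35.0 and 76.8 for CD49lo, the same order as S1pr5. It was lower in CD8 Treg than in CD49lo by -4.09 ± 0.46 (adjusted p = 0.00155), as was Itga4, an integrin subunit (-2.73 ± 0.13, adjusted p = 7.93e-05). Gpr15, a receptor for homing to the gut, ran the other way, with 21.9 and 22.7 RPKM for CD4 Treg, 17.4 for CD8 Treg, and 5.75 and 5.43 for CD49lo, and was higher in CD8 Treg than in CD49lo by 1.68 ± 0.29 (adjusted p = 0.0104). Cxcr5 was the other gene of the list called higher in CD8 Treg than in CD49lo (0.69 ± 0.16). Like Cd69, Gpr15 was higher in all 3 regulatory libraries than in both CD49lo libraries. So were Gpr183 and, of this list, Ccr7, Cxcr4, Cxcr5 and Gpr174. Gpr174 split narrowly, at 17.7 RPKM in CD4 Treg replicate 1 and 17.5 in CD49lo replicate 2, and was called in neither comparison with CD49lo. The share of all genes with such a split was not counted, so it is not known to be unusual.

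The calls of related genes given above rest on few libraries. Of 64 such calls, none turned direction under any alternative that was tried. Where the library left out was in neither group compared, the fold change could move only through scaling, so its direction was nearly fixed. The single CD8 Treg library was never left out of a comparison that used it. The fit without the filter on low reads kept 21 of the 64 and limma-voom kept 52. Pseudocounts of 0.1 and 1 RPKM kept 62 and 59 of these calls. Leaving out CD49lo replicate 1 kept 14 of them, leaving out CD49lo replicate 2 kept 15, and leaving out CD4 Treg replicate 1 or 2 kept 38 or 37, each with 1 residual degree of freedom in place of 2.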

How the data were processed

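RNA was measured in 5 libraries of sorted spleen cells, in 3 groups taken from the labels. The authors deposited RPKM for 35275 genes, although the table is presented as counts. In every library 100% of values were whole reads within 0.02 once multiplied by gene length and depth, so reads were recovered. Gene length is a column of the deposited table (an other value, in bases). CASAVA, STAR and the mm10 genome are named per the submitters' processing notes, and versions, counting and strand are not given in the sources used here.

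RPKM were divided by TMM factors (0.935 to 1.04) coded for this work, and log2(RPKM + 0.5) entered limma 3.58.1 (R 4.3.3) as 1 model of 3 groups and 5 libraries with 2 residual degrees of freedom and a variance trend on mean log2 RPM. Tests are two-sided, with Benjamini-Hochberg adjustment over 13298 genes with 15 reads over all libraries and, at median depth, 10 reads in 1 library or more. A gene passed at an adjusted p under 0.05. Intervals for read ratios are exact conditional binomial intervals and cover counting error only, since reads carry no molecular identifiers. The fit was also run on simulated reads, with the same spread set for every gene. That run checks the code and does not show how the fit behaves at the replicate spread of these libraries. Alternatives were the pseudocount, no TMM factor, no filter, limma-voom on recovered reads, a replicate block and leaving out each replicate. The planned count model was not used because the values are RPKM.

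The members and the lists of related genes were chosen with earlier results of these data known. Genes named are the 6 members, up to 6 genes that passed per list and comparison by smallest p, genes said not to pass, the 3 nearest profiles per member (leaving out receptor segments, pseudogenes, small RNA and predicted genes) and genes that overlap a member. A single gene among the nearest profiles is not reported here.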

Additional observations from a re-analysis of the deposited data

How the results depend on the processing

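No fold change of the 6 genes turned direction under an alternative. This says little where the library left out was in neither group compared, and the single CD8 Treg library could not be left out of its comparisons. The number of the 6 called in CD4 Treg against CD49lo was 2, and it was 0 without the filter on low reads (3 at an unadjusted p under 0.05), 1 with limma-voom and 0 to 2 when 1 replicate was left out. In CD8 Treg against CD4 Treg it was 2, and it was 1 with a pseudocount of 1 RPKM, 0 without the filter and 0 without any 1 replicate, with 3 at an unadjusted p under 0.05 in each. In CD8 Treg against CD49lo it was 2, and it was 1 with a pseudocount of 1 RPKM, 0 without the filter (3 unadjusted) and 0 without any 1 replicate (3 or 4 unadjusted). Leaving out a replicate leaves 1 residual degree of freedom. Over all genes, 704 and 1277 passed without the filter in CD4 Treg against CD49lo and in CD8 Treg against CD4 Treg, against 2964 and 2241, with 21346 genes tested. When 1 replicate was left out, 437 to 1457, 155 to 967 and, in CD8 Treg against CD49lo, 0 to 199 passed, the 0 in limma without CD49lo replicate 1, where 2209 genes had an unadjusted p under 0.05.

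Among single genes, the S1pr5 difference of CD8 Treg from CD49lo passed without TMM scaling (-2.96, adjusted p = 0.0415), and S1pr1 in CD8 Treg against CD4 Treg with limma-voom (0.44, adjusted p = 0.0445), where S1pr5 was lost, so that the count there stayed at 2 with a different gene. Of CD8 Treg against CD49lo calls, 32.3% were higher, against 20.6% without TMM scaling, which moves the median of all genes by -0.13, 50.8% with limma-voom and 85.2% without the filter (494 higher and 86 lower). The share higher among CD8 Treg against CD4 Treg calls was 50.5%, and 69.1% without the filter. Cd69 in CD4 Treg against CD49lo did not pass without the filter (adjusted p = 0.124), nor did S1pr5 (0.0789). The cause was not tested.

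Replicate numbers are shared by CD4 Treg and CD49lo, but the libraries did not deviate together by number (r = -0.02 over 13298 genes, which are not independent replicates). A fit with a replicate block left out CD8 Treg and had 1 residual degree of freedom. In it 4 of the 6 genes were called in CD4 Treg against CD49lo, and 3577 of 12014 genes passed. Besides S1pr5 and Cd69 these were S1pr4 (-0.38, adjusted p = 0.0399 in limma) and Gpr183 (0.50, adjusted p = 0.00992). Cd74 reached an adjusted p of 2.73e-205 in this fit, whose spread is mostly shared between genes. Its p-values are therefore not taken as stronger evidence for S1pr4 or Gpr183. With 2 residual degrees of freedom in the main fit, a difference that missed the threshold is not shown to be absent.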
